A study of Mus musculus with 14 samples.

Results

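The chemokine genes Cxcl9, Cxcl10 and Cxcl11 were followed through sequential stimulation of mouse macrophages. They were taken by symbol, and each of the 3 had an entry of its own among the 39721 entries of the table. CXCL9, CXCL10 and CXCL11 are small secreted proteins that attract activated T cells and natural killer cells by binding the shared receptor CXCR3, and macrophages are among their main sources in inflamed tissue. In background knowledge, double-stranded RNA and LPS induce these genes through the adaptor TRIF and the factor IRF3, through NF-kB, and through secreted interferon beta, which acts back on the cells by way of JAK kinases, STAT proteins and IRF9. Cxcl9 is known as the member that depends most on interferon gamma, whereas Cxcl10 also responds directly to IRF3 and NF-kB. The C57BL/6 allele of Cxcl11 is known to carry a frameshift, so its transcript is not a measure of CXCL11 protein in these mice.

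Bone marrow cells of male C57Bl6/J mice aged 6 to 12 weeks had been grown into macrophages with L929-conditioned medium, a source of CSF-1. The first stimulus was Poly I:C, a synthetic double-stranded RNA sensed by TLR3, at 100 ng/mL, or PBS as its control. After 24 h the cells were washed, and the second stimulus was LPS, a component of bacterial outer membranes that TLR4 senses and whose dose at this step was not stated, or PBS. RNA was collected 2 h or 6 h later. Cells given Poly I:C first are called primed and cells given PBS first unprimed. Written as first stimulus/second stimulus, the 4 treatments at each time were Poly I:C/LPS, PBS/LPS, Poly I:C/PBS, and PBS/PBS, giving 8 groups in 14 libraries. There were 2 libraries per group except for the PBS/PBS groups, which had 1 library at each time. All cells had the same genotype, and nothing in the labels ties replicates to separate animals or cultures, so p-values measure only the spread between these libraries, which may be technical.

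Values are FPKM, fragments scaled by transcript length and by library size, as deposited. The table gives no counts, and its absolute depth is unknown. Over the 11977 tested entries, Pearson's r between the 2 libraries of a group was 0.974 to 0.988 (a value across genes, and genes are no replicates). Macrophage markers were abundant, with a summed level of 3881 to 18969 FPKM over the 7 of 8 symbols with an entry. The symbol without an entry, Adgre1, names the same gene as Emr1, which had one. The T cell markers Cd3e, Cd3g, Cd8a and Trac and the natural killer cell markers Ncr1, Eomes and Gzma were listed at 0 in all 14 libraries, and of the T cell list only Cd4 gave a value, at 1.95 to 7.31 FPKM. B cell markers summed to 0.0574 to 0.913 FPKM, neutrophil markers to 0.257 to 8.33 FPKM, dendritic cell markers to 0.143 to 10.2 FPKM and stromal markers to 14.2 to 105 FPKM.

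The 3 genes lie side by side on the minus strand of chromosome 5. The deposited locus of Cxcl9 ran from 92321331 to 92328079, the same start and end as the RefSeq gene in build GRCm38.p6. The GENCODE M21 annotation of GRCm38 places Cxcl10 at 92346638 to 92348889 and Cxcl11 at 92359544 to 92365485, and its gene type for Cxcl11 is polymorphic pseudogene. The start sites of Cxcl9 and Cxcl10 are 20810 bases apart and those of Cxcl10 and Cxcl11 16596 bases apart. In the table Cxcl10 and Cxcl11 shared the deposited locus 92331827 to 92414628 with Art3, an ADP-ribosyltransferase gene on the opposite strand, and Gm2673, and each of these 4 entries had values of its own. Exons of Art3 overlap 133 of the 2252 exon bases of Cxcl10 and 0 exon bases of Cxcl9 or Cxcl11. Art3 stood at 0 to 3.00 FPKM and was under Cxcl10 in each library. Whether the authors' counting used strand is not given in the sources used here.

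The promoters of Cxcl9 and Cxcl10 are shown because the values of these neighbouring genes are set side by side under each stimulus. Both sequences are from RefSeq on GRCm38.p6, minus strand, 5′ to 3′, and span 300 bases around the annotated start; Cxcl11 had no entry in that table. Capitals mark letters that match the searched motifs, which were GAAANNGAA, the core of the interferon-stimulated response element bound by IRF proteins, TTCNNNGAA, a site for STAT dimers, GGGANNTNC, a form of the NF-kB site, and TATAAA, the TATA box, each on both strands.
Cxcl9, chr5:92328030-92328329: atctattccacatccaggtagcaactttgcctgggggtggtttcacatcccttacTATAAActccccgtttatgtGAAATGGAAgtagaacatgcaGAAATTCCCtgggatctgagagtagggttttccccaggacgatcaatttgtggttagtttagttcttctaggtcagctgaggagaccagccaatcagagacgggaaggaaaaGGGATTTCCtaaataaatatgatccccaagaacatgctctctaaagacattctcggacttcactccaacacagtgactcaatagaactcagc
Cxcl10, chr5:92348840-92349139: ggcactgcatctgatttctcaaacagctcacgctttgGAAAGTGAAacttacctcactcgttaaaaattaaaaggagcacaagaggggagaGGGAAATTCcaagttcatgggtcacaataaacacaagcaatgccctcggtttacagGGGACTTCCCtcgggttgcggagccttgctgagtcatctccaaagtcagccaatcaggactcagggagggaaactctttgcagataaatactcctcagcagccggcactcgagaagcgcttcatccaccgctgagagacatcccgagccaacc
In Cxcl9 letters matching the response element core lay 175 to 167 bases before the start, and the letters TATAAA 195 to 190 bases before it. The NF-kB form matched at 154 to 146 bases before the start on the reverse strand and at 42 to 34 bases before it. In Cxcl10 letters matching the response element core lay 213 to 205 bases before the start. The NF-kB form matched at 159 to 151 bases, at 103 to 95 bases and, overlapping the last, at 102 to 94 bases on the reverse strand. Of the 32851 promoters of this length, 8.56% hold the response element core, 15.1% the NF-kB form, 8.3% the STAT form and 13.6% TATAAA. Among the listed ISRE-type interferon-stimulated genes, 8 of 11 with a promoter entry (72.7%) hold the response element core. The same holds for 1 of 8 other CXC chemokine genes (12.5%) and 1 of 7 CC chemokine genes (14.3%). These counts are of genes with a match in any of their promoters, unlike the shares of single promoters above. Both promoters had 0 matches to the STAT form, and Cxcl10 had 0 to TATAAA. A match is a description of the letters in this window and not a bound site.

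Cxcl10 was the most abundant of the 3 transcripts in every library, and the order of the treatments differed between the genes. At 6 h Cxcl9 stood at 52.6 and 52.1 FPKM after Poly I:C/LPS, 32.5 and 54.5 FPKM after PBS/LPS, 55.3 and 52.7 FPKM after Poly I:C/PBS, and 0.0262 FPKM after PBS/PBS. At 2 h Cxcl9 stood at 157 and 124 FPKM after Poly I:C/LPS, 3.80 and 2.18 FPKM after PBS/LPS, 124 and 128 FPKM after Poly I:C/PBS, and 0.128 FPKM after PBS/PBS. Both groups that had received Poly I:C were therefore high at 2 h with overlapping libraries, and the PBS/LPS libraries were low. At 6 h the 3 stimulated groups lay close together. In the order of its group means, Poly I:C/LPS at 2 h came first and Poly I:C/PBS at 2 h next, with overlapping ranges. The stimulated groups of 6 h followed, and among them Poly I:C/LPS did not pass the test against either of the others. PBS/LPS at 2 h stood below all of these and above both unstimulated libraries.

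Cxcl10 at 6 h stood at 1859 and 1850.1 FPKM after Poly I:C/LPS, 5144 and 6792 FPKM after PBS/LPS, 183 and 137 FPKM after Poly I:C/PBS, and 6.06 FPKM after PBS/PBS. At 2 h Cxcl10 stood at 2306 and 2312 FPKM after Poly I:C/LPS, 2585 and 2005 FPKM after PBS/LPS, 1336 and 1034 FPKM after Poly I:C/PBS, and 8.37 FPKM after PBS/PBS. The highest group was thus PBS/LPS at 6 h, followed by the LPS groups of 2 h, whose libraries overlapped each other. Poly I:C/LPS at 6 h, Poly I:C/PBS at 2 h and Poly I:C/PBS at 6 h came next without overlap. Ranked by FPKM among the 11977 tested entries, Cxcl10 held rank 8 and rank 7 in the PBS/LPS libraries of 6 h and rank 18 in both of 2 h. Its rank was 6694 in the PBS/PBS library of 6 h and 5762 in that of 2 h.

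Cxcl11 at 6 h stood at 240.1 and 242 FPKM after Poly I:C/LPS, 188 and 269 FPKM after PBS/LPS, 42.3 and 40.9 FPKM after Poly I:C/PBS, and 0.0252 FPKM after PBS/PBS. At 2 h Cxcl11 stood at 394 and 385 FPKM after Poly I:C/LPS, 35.7 and 21.8 FPKM after PBS/LPS, 347 and 354 FPKM after Poly I:C/PBS, and 0.175 FPKM after PBS/PBS. Its order of group means opened as that of Cxcl9 did, with the Poly I:C groups of 2 h highest. The LPS groups of 6 h overlapped each other and came next, and Poly I:C/PBS at 6 h and PBS/LPS at 2 h were the lowest stimulated groups. Unstimulated Cxcl9 and Cxcl11 were near 0 at both times, whereas Cxcl10 had a low level of its own.

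**Figure D1:**
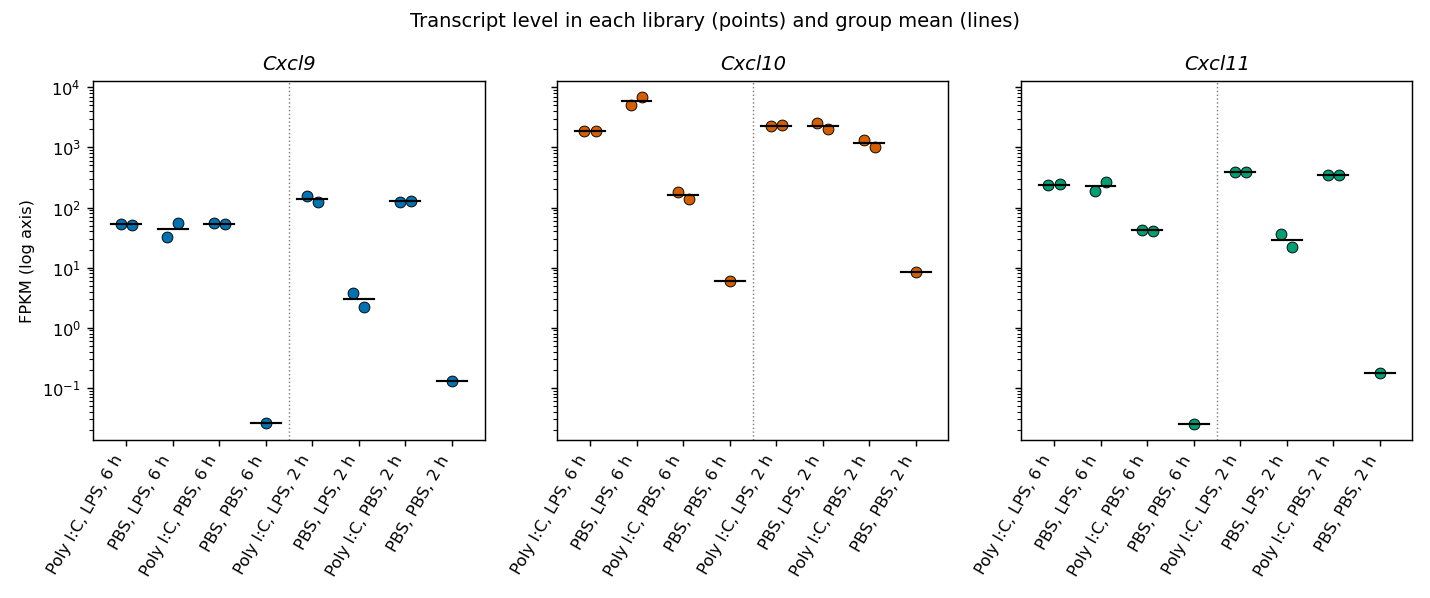
FPKM of Cxcl9, Cxcl10 and Cxcl11 on a log axis, with 1 point per library and a line at each group mean, the first word naming the first stimulus and the second word the second; a dotted line separates 6 h from 2 h. The PBS/LPS libraries of 2 h are low for Cxcl9 (3.80 and 2.18 FPKM) and high for Cxcl10 (2585 and 2005 FPKM), and the highest Cxcl10 points are those of PBS/LPS at 6 h.

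Throughout, a difference is one of mean log2(FPKM + 1) between groups, given with its standard error, and understates the change of weakly expressed genes. Each difference was tested with limma at an adjusted p under 0.05, after Benjamini-Hochberg adjustment over all 11977 tested entries. Means in FPKM are over 2 libraries and are given with their SD. Beside each count of these 3 genes stands the share of all tested entries called the same way.

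In cells that had not been primed, all 3 chemokine genes were higher after LPS at both times. At 6 h they were 3 of 3 higher after PBS/LPS than after PBS/PBS, where 22.9% of tested entries were higher. Cxcl9 differed by 5.39 ± 0.30 (limma adjusted p = 3.27e-07), Cxcl10 by 9.71 ± 0.25 (adjusted p = 2.38e-09) and Cxcl11 by 7.79 ± 0.26 (adjusted p = 1.23e-08). At 2 h they were again 3 of 3 higher, where 9.47% were. At that time Cxcl9 differed by 1.79 ± 0.30 (limma adjusted p = 0.00235), Cxcl10 by 7.93 ± 0.25 (adjusted p = 1.04e-07) and Cxcl11 by 4.62 ± 0.26 (adjusted p = 2.19e-06). The control is 1 library at each time, so these tests take its spread from the other groups. With a pseudocount of 0.1 in place of 1, the difference of Cxcl9 was 8.39 at 6 h and 3.71 at 2 h, since its controls were near 0. The number of entries called in either direction at 2 h, 1899, was 3703 without PBS/LPS replicate 2.

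Between the times, all 3 went on rising in unprimed LPS-treated cells, where 23.4% of tested entries were higher at 6 h than at 2 h. Cxcl9 averaged 43.5 ± 15.6 FPKM at 6 h and 2.99 ± 1.15 FPKM at 2 h (SD, n = 2 libraries each), a ratio of 14.6 and a difference of 3.47 ± 0.24 (limma adjusted p = 1.79e-06). Cxcl11 averaged 229 ± 57.1 FPKM at 6 h and 28.8 ± 9.82 FPKM at 2 h, a ratio of 7.96 (difference 2.97 ± 0.21, limma adjusted p = 2e-06). Cxcl10 averaged 5968 ± 1165 FPKM at 6 h and 2295 ± 410.0 FPKM at 2 h, a ratio of 2.60 (difference 1.38 ± 0.20, limma adjusted p = 2.9e-04). The libraries of 6 h lay above those of 2 h for each gene, and the share of all tested entries that did so is not given. Whether the 3 ratios differ from each other was not tested.

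Poly I:C without LPS left all 3 transcripts high after the wash, and they then fell. Compared with PBS/PBS at 2 h after the change of medium, 3 of 3 were higher, where 24.9% of tested entries were. The differences were 6.82 ± 0.30 for Cxcl9 (limma adjusted p = 7.35e-08), 6.97 ± 0.25 for Cxcl10 (adjusted p = 2.11e-08) and 8.22 ± 0.26 for Cxcl11 (adjusted p = 1.03e-08). At 6 h 3 of 3 were higher, where 18.4% were, by 5.74 ± 0.30 for Cxcl9 (limma adjusted p = 4.2e-07), 4.50 ± 0.25 for Cxcl10 (adjusted p = 6.2e-07) and 5.38 ± 0.26 for Cxcl11 (adjusted p = 2.63e-07). With a pseudocount of 0.1 the differences at 6 h were 8.74 for Cxcl9 and 8.38 for Cxcl11.

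Between 6 h and 2 h after the wash, 3 of 3 were lower in Poly I:C/PBS cells, where 18% of tested entries were lower. Cxcl10 averaged 160.2 ± 32.6 FPKM at 6 h and 1185 ± 214 FPKM at 2 h (SD, n = 2 libraries each), so 0.135 of its level of 2 h was left (difference -2.88 ± 0.20, limma adjusted p = 2.07e-05). Cxcl11 averaged 41.6 ± 1.01 FPKM at 6 h and 350.2 ± 4.77 FPKM at 2 h, a ratio of 0.119 (difference -3.04 ± 0.21, limma adjusted p = 2.07e-05). Cxcl9 averaged 54.0 ± 1.89 FPKM at 6 h and 126 ± 2.58 FPKM at 2 h, a ratio of 0.428 (difference -1.21 ± 0.24, limma adjusted p = 0.00476). The library ranges of the times did not overlap for any of the 3, a description without the share of all tested entries. Of all tested entries, 3636 were called in either direction here, against 2021 without Poly I:C/PBS replicate 1 of 2 h, 2114 without replicate 2 of 2 h and 2013 without replicate 2 of 6 h.

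With Poly I:C priming, Cxcl10 was lower at 6 h after LPS, and Cxcl9 and Cxcl11 were higher at 2 h. At 6 h after LPS, 0 of 3 were higher and 1 of 3, Cxcl10, was lower in primed cells, where 23.7% of tested entries were higher and 25.9% lower. Cxcl10 averaged 1855 ± 6.60 FPKM after Poly I:C/LPS and 5968 ± 1165 FPKM after PBS/LPS (SD, n = 2 libraries each), a ratio of 0.311 and a difference of -1.67 ± 0.20 (limma adjusted p = 8.54e-05). Both primed libraries lay under both unprimed ones. Cxcl9 averaged 52.4 ± 0.335 FPKM after Poly I:C/LPS and 43.5 ± 15.6 FPKM after PBS/LPS, with overlapping libraries and a difference of 0.31 ± 0.24 (95% interval -0.23 to 0.85, limma adjusted p = 0.323). Cxcl11 averaged 241 ± 1.54 FPKM after Poly I:C/LPS and 229 ± 57.1 FPKM after PBS/LPS, again overlapping, with a difference of 0.10 ± 0.21 (95% interval -0.37 to 0.57, limma adjusted p = 0.734). Without PBS/LPS replicate 1 the differences of these genes were -0.06 for Cxcl9 and -0.16 for Cxcl11, and without PBS/LPS replicate 2 they were 0.67 for Cxcl9 (limma adjusted p = 0.0502) and 0.35 for Cxcl11 (adjusted p = 0.26), in each case without a call.

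At 2 h after LPS, 2 of 3 were higher and 0 of 3 lower in primed cells, where 32.6% of tested entries were higher and 28.5% lower. Cxcl9 averaged 140.4 ± 23.3 FPKM after Poly I:C/LPS and 2.99 ± 1.15 FPKM after PBS/LPS, a ratio of 46.98 and a difference of 5.17 ± 0.24 (limma adjusted p = 7.32e-08). Cxcl11 averaged 389 ± 6.37 FPKM after Poly I:C/LPS and 28.8 ± 9.82 FPKM after PBS/LPS, a ratio of 13.5 and a difference of 3.75 ± 0.21 (limma adjusted p = 2.33e-07). For both genes the primed libraries stood above the unprimed ones without overlap, again without the share of all tested entries. Poly I:C/PBS, without LPS, stood at 126 ± 2.58 FPKM for Cxcl9 and 350.2 ± 4.77 FPKM for Cxcl11 at the same time. Poly I:C/LPS did not pass against Poly I:C/PBS for either gene (limma adjusted p = 0.72 for Cxcl9 and 0.658 for Cxcl11). Cxcl10 averaged 2309 ± 4.21 FPKM after Poly I:C/LPS and 2295 ± 410.0 FPKM after PBS/LPS, with a difference of 0.02 ± 0.20 (95% interval -0.43 to 0.47, limma adjusted p = 0.939). That difference was -0.16 without PBS/LPS replicate 2, and its libraries overlapped.

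Taken with its sign, the difference made by priming was lower at 6 h than at 2 h for all 3 genes, but in unlike ways. It shrank from 5.17 to 0.31 for Cxcl9 and from 3.75 to 0.10 for Cxcl11. For Cxcl10 it went from 0.02 without a call at 2 h to -1.67 at 6 h. Tested directly as the priming difference at 6 h minus that at 2 h, 3 of 3 were lower, where 25.3% of tested entries were. The change was -4.86 ± 0.34 for Cxcl9 (limma adjusted p = 3.35e-06), -1.69 ± 0.29 for Cxcl10 (adjusted p = 9.1e-04) and -3.66 ± 0.30 for Cxcl11 (adjusted p = 8.23e-06).

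Levels of macrophage markers, and of markers of other cells, differed between the same groups. Over all tested entries, priming before LPS left 23.7% higher and 25.9% lower at 6 h, and 32.6% higher and 28.5% lower at 2 h. Lyz2 was the largest macrophage marker in the sums, at 2408 to 16240 FPKM over the 14 libraries. Of the 7 tested macrophage markers, 0 were higher and 6 lower in primed cells at 6 h after LPS, where the list summed to 3881 to 4043 FPKM after Poly I:C/LPS and 13783 to 14772 FPKM after PBS/LPS. At 2 h, 2 were higher and 5 lower, with sums of 6731 to 6953 FPKM after Poly I:C/LPS and 14857 to 18969 FPKM after PBS/LPS. Stromal markers summed to 40.1 to 50.2 FPKM after Poly I:C/LPS and 22.2 to 58.6 FPKM after PBS/LPS at 6 h, and to 39.97 to 105 FPKM and 14.2 to 14.9 FPKM in the same groups at 2 h. Dendritic cell markers, mostly Xcr1, summed to 4.07 to 4.21 FPKM after Poly I:C/LPS and 3.37 to 3.93 FPKM after PBS/LPS at 6 h, and to 9.79 to 10.2 FPKM and 2.85 to 3.41 FPKM in the same groups at 2 h. Neutrophil markers summed to 7.20 to 8.33 FPKM after Poly I:C/LPS and 1.63 to 2.06 FPKM after PBS/LPS at 6 h, where 2 of the 2 tested were higher with priming, and to 0.455 to 0.980 FPKM and 2.11 to 2.15 FPKM in the same groups at 2 h, where 1 was lower. S100a9 and Elane of that list were at 0 in all libraries. Of the 4 tested stromal markers, 1 was higher and 0 lower with priming at 6 h, and 3 higher and 0 lower at 2 h. Of the 2 tested dendritic cell markers, 0 were higher at 6 h and 1 at 2 h, with 0 lower. Of the T cell list only Cd4 was tested, at 2.81 to 4.44 FPKM after Poly I:C/LPS and 1.95 to 2.79 FPKM after PBS/LPS at 6 h (no call), and at 5.55 to 7.31 FPKM and 2.06 to 2.75 FPKM in the same groups at 2 h, where it was higher by 1.12. In bulk libraries fewer cells of a type and less RNA per cell cannot be told apart, and the part of these shifts in the chemokine results was not tested.

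**Figure D2:**
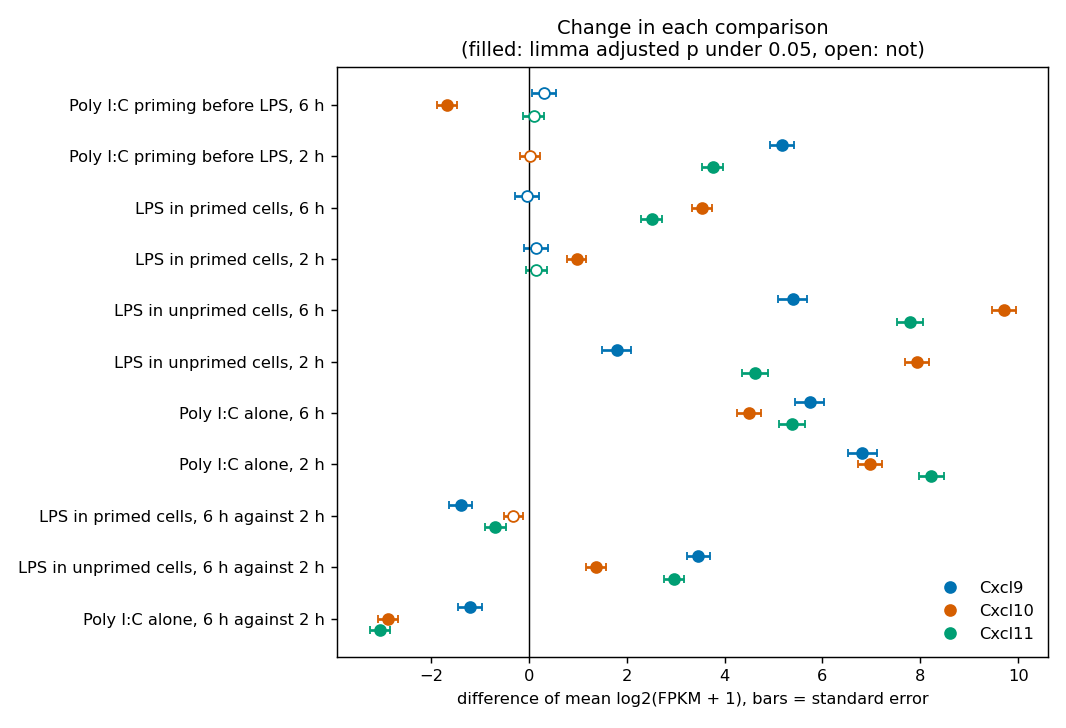
Differences of mean log2(FPKM + 1) with standard errors for Cxcl9, Cxcl10 and Cxcl11 in 11 comparisons, filled where the limma adjusted p was under 0.05. Primed and unprimed LPS-treated cells differed for Cxcl9 and Cxcl11 at 2 h (5.17 and 3.75) and for Cxcl10 at 6 h (-1.67). LPS in primed cells did not pass for Cxcl9 and Cxcl11 at 2 h (0.14 and 0.15), while LPS alone moved all 3 genes at both times.

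In primed cells, Cxcl10 and Cxcl11 at 6 h and Cxcl10 at 2 h stood higher with LPS than without it. From 2 h to 6 h, Poly I:C/PBS means went from 1185 to 160.2 FPKM for Cxcl10 and from 350.2 to 41.6 FPKM for Cxcl11. After Poly I:C/LPS the means went from 2309 to 1855 FPKM for Cxcl10 and from 389 to 241 FPKM for Cxcl11, so neither rose. At 6 h after the second stimulus 2 of 3 were higher after Poly I:C/LPS than after Poly I:C/PBS, where 21.7% of tested entries were higher. Cxcl10 averaged 1855 ± 6.60 FPKM after Poly I:C/LPS and 160.2 ± 32.6 FPKM after Poly I:C/PBS, a ratio of 11.6 and a difference of 3.54 ± 0.20 (limma adjusted p = 4.41e-07). Cxcl11 averaged 241 ± 1.54 FPKM after Poly I:C/LPS and 41.6 ± 1.01 FPKM after Poly I:C/PBS, a ratio of 5.80 and a difference of 2.51 ± 0.21 (limma adjusted p = 6.26e-06). Cxcl9 did not pass, at 52.4 ± 0.335 FPKM after Poly I:C/LPS and 54.0 ± 1.89 FPKM after Poly I:C/PBS (difference -0.04 ± 0.24, 95% interval -0.58 to 0.50, limma adjusted p = 0.908). Whether the genes differ from each other in this response was not tested.

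At 2 h, 1 of 3 was higher in primed cells given LPS, where 14% of tested entries were. Cxcl10 averaged 2309 ± 4.21 FPKM after Poly I:C/LPS and 1185 ± 214 FPKM after Poly I:C/PBS, a ratio of 1.95 (difference 0.97 ± 0.20, limma adjusted p = 0.00621), with no overlap. That call was lost without Poly I:C/PBS replicate 2, at a difference of 0.79 (limma adjusted p = 0.068). Cxcl9 differed by 0.14 ± 0.24 (95% interval -0.40 to 0.69, limma adjusted p = 0.72), or by -0.02 without Poly I:C/LPS replicate 1. Cxcl11 differed by 0.15 ± 0.21 (95% interval -0.32 to 0.62, limma adjusted p = 0.658), although its libraries did not overlap either. Over all tested entries 2725 were called in either direction at 2 h. That number was 1767 without Poly I:C/PBS replicate 1, 1543 without its replicate 2, 1812 without Poly I:C/LPS replicate 1 and 1612 without its replicate 2.

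After Poly I:C/LPS, levels of 2 of 3 genes were lower at 6 h than at 2 h, where 25.3% of tested entries were lower. Cxcl9 averaged 52.4 ± 0.335 FPKM at 6 h and 140.4 ± 23.3 FPKM at 2 h, a ratio of 0.373 (difference -1.40 ± 0.24, limma adjusted p = 0.00141). Cxcl11 averaged 241 ± 1.54 FPKM at 6 h and 389 ± 6.37 FPKM at 2 h, a ratio of 0.620 (difference -0.69 ± 0.21, limma adjusted p = 0.0253). The call of Cxcl11 was lost when any of the 4 libraries was left out, at -0.67 without replicate 1 and -0.70 without replicate 2 of 2 h, and at -0.68 without replicate 1 and -0.69 without replicate 2 of 6 h (limma adjusted p up to 0.101). Cxcl10 averaged 1855 ± 6.60 FPKM at 6 h and 2309 ± 4.21 FPKM at 2 h, with no overlap, and its difference of -0.32 ± 0.20 did not pass (95% interval -0.77 to 0.13, limma adjusted p = 0.242).

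The interaction asks whether the difference made by LPS was smaller in primed than in unprimed cells, on the log scale. At 6 h 3 of 3 genes had a negative interaction, where 16.7% of tested entries had one. It was -5.44 ± 0.38 for Cxcl9 (limma adjusted p = 7.21e-06), -6.17 ± 0.32 for Cxcl10 (adjusted p = 1.16e-06) and -5.28 ± 0.33 for Cxcl11 (adjusted p = 4.27e-06). At 2 h 3 of 3 were again negative, where 1.77% of tested entries were, at -6.95 ± 0.32 for Cxcl10 (limma adjusted p = 7.15e-06), -4.47 ± 0.33 for Cxcl11 (adjusted p = 5.9e-05) and -1.65 ± 0.38 for Cxcl9 (adjusted p = 0.0416). The combined stimuli therefore gave less transcript than the product of their separate fold changes, from an unstimulated level that rests on 1 library at each time. With a pseudocount of 0.1 the interaction of Cxcl9 was -8.43 at 6 h and -3.57 at 2 h, and that of Cxcl11 -8.28 at 6 h. The call of Cxcl9 at 2 h was lost without 5 of the 6 replicate libraries (limma adjusted p up to 0.135). Its value was -1.35 without PBS/LPS replicate 1, -1.82 without replicate 1 and -1.48 without replicate 2 of Poly I:C/LPS, and -1.67 without replicate 1 and -1.63 without replicate 2 of Poly I:C/PBS. Over all tested entries 514 interactions were called at 2 h in either direction. That number was 1637 without PBS/LPS replicate 2, 304 without Poly I:C/PBS replicate 2, and 319 without replicate 1 and 276 without replicate 2 of Poly I:C/LPS.

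The make-up of the pool of these transcripts is described by the share of each gene, with no test. FPKM is scaled by length, so the genes may be compared within a library. At 6 h Cxcl10 made up on average 86.3% of the summed FPKM of the 3 genes after Poly I:C/LPS, 95.7% after PBS/LPS and 62.3% after Poly I:C/PBS. At 2 h it made up 81.3% after Poly I:C/LPS, 98.7% after PBS/LPS and 71.1% after Poly I:C/PBS. In the single PBS/PBS libraries, where all 3 genes were low, it made up 99.2% at 6 h and 96.5% at 2 h. Cxcl10 was thus nearly the whole pool in unprimed cells with or without LPS. It was a smaller part of the pool wherever Poly I:C had been given. Cxcl9 made up 21.3% of the pool after Poly I:C/PBS at 6 h and 0.126% after PBS/LPS at 2 h. Cxcl11 made up 21.3% after Poly I:C/PBS at 2 h and 1.22% after PBS/LPS at 2 h. The summed level at 6 h was 2152 and 2145 FPKM after Poly I:C/LPS and 5365 and 7115 FPKM after PBS/LPS.

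**Figure D3:**
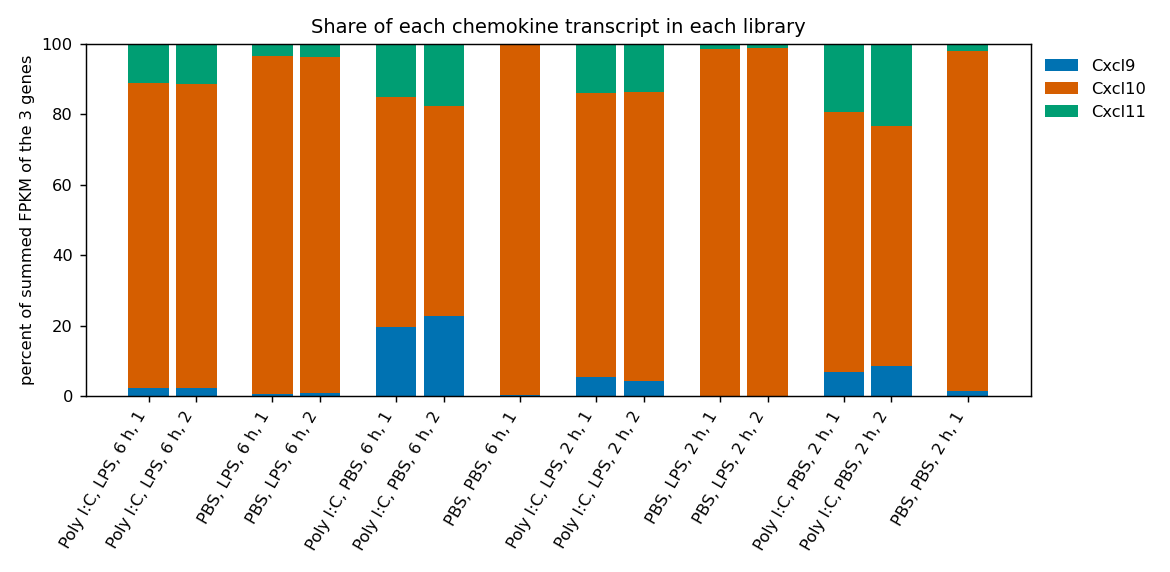
Share of Cxcl9, Cxcl10 and Cxcl11 in their summed FPKM, in percent, with 1 bar per library labelled by first stimulus, second stimulus, time and replicate. Cxcl10 fills 95.7% of the pool after PBS/LPS at 6 h and 98.7% at 2 h on average, and Cxcl9 reaches its largest share, 21.3%, after Poly I:C/PBS at 6 h.

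Genes upstream and downstream of these chemokines are given by role, beginning with the interferons that induce them. The lists were chosen with earlier results of these data known, and no list was tested as a set. Ifng, the gene of interferon gamma, was listed at 0 in all 14 libraries. Ifnb1, the gene of interferon beta, averaged 30.5 ± 2.15 FPKM after Poly I:C/LPS and 6.32 ± 2.61 FPKM after PBS/LPS at 6 h, a difference of 2.15 ± 0.36 (limma adjusted p = 7.64e-04). At 2 h Ifnb1 averaged 213.6 ± 5.48 FPKM after Poly I:C/LPS and 44.7 ± 8.60 FPKM after PBS/LPS (difference 2.24 ± 0.36, limma adjusted p = 3.88e-04). Primed cells thus held more Ifnb1 transcript at both times. Interferon beta protein was not measured, and the part of Ifnb1 in the levels of the 3 genes was not tested.

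Among the sensors and adaptors, Tlr3, the receptor of Poly I:C, averaged 44.3 ± 4.02 FPKM after Poly I:C/LPS and 99.7 ± 15.6 FPKM after PBS/LPS at 6 h, a difference of -1.15 ± 0.15. At 2 h Tlr3 averaged 51.7 ± 4.13 FPKM after Poly I:C/LPS and 3.45 ± 0.533 FPKM after PBS/LPS, a difference of 3.57 ± 0.15. Of the 10 tested genes of the TLR3, TLR4 and TRIF pathway, priming left 2 higher and 3 lower at 6 h (median difference 0.15) and 7 higher and 1 lower at 2 h (median 1.04). Over all tested entries, against which this and the following lists are to be read, 23.7% were higher and 25.9% lower at 6 h (median -0.00019), and 32.6% higher and 28.5% lower at 2 h (median 0.054). Tlr4, the LPS receptor, differed by -1.34 ± 0.23 at 6 h and by 1.10 ± 0.23 at 2 h.

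Of the 7 tested JAK, STAT and IRF genes, priming left 2 higher and 1 lower at 6 h (median 0.45) and 7 higher and 0 lower at 2 h (median 1.41). Stat2, a factor of the type I interferon response, differed by -0.52 ± 0.19 at 6 h and 3.26 ± 0.19 at 2 h. Irf1, an interferon-induced activator, was higher at both times, by 0.82 ± 0.23 at 6 h and 1.41 ± 0.23 at 2 h. Of the 5 tested NF-kB genes, priming left 4 higher and 0 lower at 6 h (median 1.17) and 3 higher and 0 lower at 2 h (median 0.53).

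The next list holds genes that restrain these signals or their transcripts. Of 7 tested feedback and mRNA decay genes, 3 were higher and 1 lower with priming at 6 h (median 0.079) and 4 higher and 1 lower at 2 h (median 1.00). Usp18, an inhibitor of type I interferon receptor signalling, differed by 0.08 ± 0.26 at 6 h (limma adjusted p = 0.828) and by 4.76 ± 0.26 at 2 h (adjusted p = 1.92e-07). Zfp36, which encodes the mRNA decay factor tristetraprolin, averaged 235 ± 49.2 FPKM after Poly I:C/LPS and 615 ± 102 FPKM after PBS/LPS at 6 h, a difference of -1.39 ± 0.27. At 2 h Zfp36 averaged 817 ± 66.5 FPKM after Poly I:C/LPS and 155 ± 7.16 FPKM after PBS/LPS, a difference of 2.39 ± 0.27. Socs1, an inhibitor of JAK kinases, was the 1 gene lower at 2 h, by -1.97 ± 0.41, and did not pass at 6 h (-0.18 ± 0.41, limma adjusted p = 0.748).

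Interferon-stimulated genes without a chemokine role are given beside the 3 members. Of 12 tested ISRE-type genes, which type I interferon induces, priming left 1 higher and 7 lower at 6 h (median -0.59) and 11 higher and 0 lower at 2 h (median 3.22). Rsad2, which encodes the antiviral protein viperin, averaged 1063 ± 122 FPKM after Poly I:C/LPS and 3853 ± 373 FPKM after PBS/LPS at 6 h, a difference of -1.86 ± 0.15 beside the -1.67 of Cxcl10. At 2 h Rsad2 differed by 2.69 ± 0.15, where Cxcl10 did not pass. Mx2, an antiviral GTPase gene, was the ISRE-type gene that did not pass at 2 h, at 0.35 ± 0.25 (limma adjusted p = 0.243). Of 11 tested genes typical of the interferon gamma response, 6 were higher and 2 lower at 6 h (median 1.00) and 11 higher and 0 lower at 2 h (median 3.91). Gbp2, a guanylate-binding protein gene, differed by -0.97 ± 0.17 at 6 h and 5.20 ± 0.17 at 2 h, whereas H2-Aa, an MHC class II chain, was higher at both times, by 4.98 ± 0.18 at 6 h and 5.90 ± 0.18 at 2 h.

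Among other chemokine genes the calls went in both directions, as they did over all tested entries. Of 8 tested CXC genes outside the 3, priming left 3 higher and 2 lower at 6 h (median 0.28) and 4 higher and 2 lower at 2 h (median 0.83). Cxcl1, a neutrophil attractant, averaged 142 ± 8.78 FPKM after Poly I:C/LPS and 0.914 ± 0.285 FPKM after PBS/LPS at 6 h, a difference of 6.23 ± 0.33 opposite in sign to that of Cxcl10. Of 9 tested CC genes, 3 were higher and 5 lower at 6 h (median -0.90) and 6 higher and 1 lower at 2 h (median 1.15). Ccl2, Ccl7 and Ccl12, attractants of monocytes, were lower at 6 h as Cxcl10 was, by -1.63 ± 0.17, -2.95 ± 0.18 and -1.81 ± 0.21. At 2 h Ccl2 (0.42 ± 0.17, limma adjusted p = 0.0525) and Ccl7 (0.01 ± 0.18, adjusted p = 0.976) did not pass, and Ccl12 was higher by 2.05 ± 0.21. Ccl5, which attracts T cells through another receptor, was higher at both times, by 1.29 ± 0.25 at 6 h and 4.84 ± 0.25 at 2 h.

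**Figure D4:**
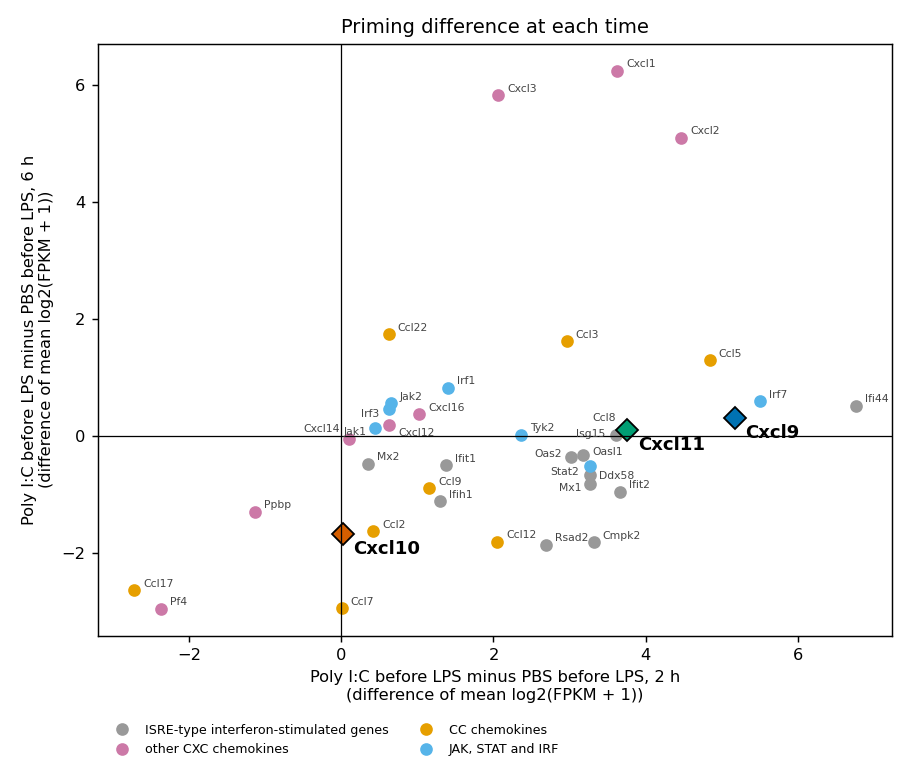
Priming difference of mean log2(FPKM + 1), Poly I:C before LPS minus PBS before LPS, at 2 h (horizontal axis) and 6 h (vertical axis), for the 3 chemokine genes (diamonds) and genes of 4 lists (points). Cxcl9 and Cxcl11 lie to the right near 0 on the vertical axis (0.31 and 0.10), and Cxcl10 lies at 0.02 and -1.67, near Ccl2.

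The receptor gene and the genes beside the cluster were also measured. Cxcr3 was detected in these macrophage cultures and averaged 25.0 ± 2.66 FPKM after Poly I:C/LPS and 4.03 ± 0.974 FPKM after PBS/LPS at 6 h (difference 2.38 ± 0.18, limma adjusted p = 3.45e-06). At 2 h Cxcr3 averaged 12.4 ± 1.71 FPKM after Poly I:C/LPS and 5.58 ± 0.0290 FPKM after PBS/LPS (difference 1.02 ± 0.18, limma adjusted p = 5.69e-04). The combined stimuli thus gave the highest Cxcr3 level at each time, since the other groups stood at 2.10 to 5.58 FPKM on average. The T cell marker genes Cd3e and Trac were at 0 in these libraries, and Cd4 was higher with priming at 2 h, as Cxcr3 was; its part in the Cxcr3 result was not tested. Of the 6 tested genes flanking or overlapping the cluster, 2 were higher and 3 lower with priming at 6 h (median -0.56) and 2 higher and 2 lower at 2 h (median 0.31). Naaa, an amidase gene on the Cxcl9 side, differed by -2.01 ± 0.23 at 6 h and did not pass at 2 h (0.32 ± 0.23, limma adjusted p = 0.245). Sdad1, which lies between Naaa and Cxcl9, differed by 1.01 ± 0.14 at 6 h and -1.36 ± 0.14 at 2 h.

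Genes with the most similar pattern were found by Pearson correlation of log2(FPKM + 1) over the 14 libraries, among 6930 tested single-gene entries averaging at least 5 FPKM. These values are descriptions over libraries that share treatments. The nearest to Cxcl9 were Irf7 at r = 0.992, 9330175E14Rik at 0.991, and Isg20, Xaf1 and Dusp28 at 0.987 each. The nearest to Cxcl11 were Isg15 at 0.992, Mx1 and Rtp4 at 0.989, Oasl1 at 0.987 and Ifi205 at 0.983. The nearest to Cxcl10 were N4bp1 at 0.985, Mx2 at 0.975, Irg1 at 0.964, Ifih1 at 0.957 and Dusp1 at 0.955. The 3 sets of 5 had no gene in common. Between the members, r was 0.918 for Cxcl9 and Cxcl11, 0.866 for Cxcl10 and Cxcl11 and 0.618 for Cxcl9 and Cxcl10, although all 3 lie in 1 cluster.

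The 5 neighbours of Cxcl10 had unlike priming differences at 2 h after LPS, although Cxcl10 itself did not pass there. N4bp1, its nearest, averaged 58.9 FPKM after Poly I:C/LPS and 42.8 FPKM after PBS/LPS at that time, a difference of 0.45 ± 0.13. Irg1, which encodes the itaconate-producing enzyme of macrophages, averaged 2789 FPKM after Poly I:C/LPS and 494 FPKM after PBS/LPS, a difference of 2.51 ± 0.17. Ifih1, which encodes the RNA sensor MDA5, averaged 160 FPKM after Poly I:C/LPS and 65.1 FPKM after PBS/LPS, a difference of 1.29 ± 0.17. These 3 were called higher, Mx2 did not pass, and Dusp1, a phosphatase gene, was lower by -0.60 ± 0.19 (limma adjusted p = 0.0216). At 6 h Irg1, Ifih1 and Dusp1 were lower, as Cxcl10 was, by -0.50 ± 0.17, -1.12 ± 0.17 and -1.02 ± 0.19, and N4bp1 (-0.29 ± 0.13, limma adjusted p = 0.0785) and Mx2 (-0.48 ± 0.25, adjusted p = 0.129) did not pass. Since these genes were chosen for their likeness over the same libraries, their values are a description.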

How the data were processed

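Polyadenylated RNA of 14 macrophage libraries had been made into stranded libraries and sequenced as paired reads of 76 bases, per the labels' protocols. TopHat2, Cufflinks and Cuffnorm are named in the submitters' processing notes, without versions. The deposited values are FPKM per entry, normalized by the authors, and the deposited length column was not used in any test. The notes name build mm9, but the deposited Cxcl9 coordinates equal the GRCm38.p6 gene, so coordinates are given as GRCm38. Entries without a gene name took 6.33% to 17.7% of FPKM. Absolute depth is unknown. Among low values, up to 0.3 FPKM, the most common ratio between 2 libraries was read as that of 1 fragment in each. As few as 8.38% of the values of a pair of libraries lay at that ratio. The value of 1 fragment inferred in this way differed by 3.07-fold between libraries. Precision is lowest for genes near 0.

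Samples were grouped by the labels. The fit used log2(FPKM + 1) of the 11977 named entries that reached 1 FPKM in 2 or more libraries. All 3 chemokine genes passed. limma 3.58.1 in R 4.3.3 fitted 1 mean per group over all 14 libraries, with an intensity trend and 6 residual degrees of freedom, and p-values of 2-sided tests were adjusted over all tested entries by the Benjamini-Hochberg method, at a threshold of 0.05. The pipeline was tested on simulated data. Of log2 changes of 1, 84% were recovered for priming before LPS at 2 h and 66% for LPS in unprimed cells at 2 h. Of log2 changes of 2, 99% were recovered in each, and false calls came to 3.68% and 6.25% in that order. Other settings were median-of-ratios scaling, a pseudocount of 0.1, fits without the filter or the trend, fits of a single time, a control made of both PBS/PBS libraries, a replicate block, and leaving out each replicate. Replicate numbers are in the labels, which pair none. The members and gene lists were chosen with earlier results of these data known. A gene of the JAK, STAT and IRF list is not reported here and is left out of its counts. Named genes are the members, listed genes whose role bears on them, and the 5 entries most correlated with each member. Promoters are RefSeq sequences of GRCm38.p6.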

Additional observations from a re-analysis of the deposited data

Results flagged for a closer look

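For each of the 3 genes the difference made by LPS differed between primed and unprimed cells, by its own limma test. The difference made by priming also differed between the times, by its own limma test. Over all tested entries, 16.7% had a negative interaction at 6 h and 1.77% at 2 h. The priming difference was called lower at 6 h than at 2 h for 25.3% of them. The interaction at 6 h was -5.44 ± 0.38 for Cxcl9, -6.17 ± 0.32 for Cxcl10 and -5.28 ± 0.33 for Cxcl11 (limma adjusted p = 7.21e-06, 1.16e-06 and 4.27e-06). The interaction at 2 h was -1.65 ± 0.38 for Cxcl9, -6.95 ± 0.32 for Cxcl10 and -4.47 ± 0.33 for Cxcl11 (limma adjusted p = 0.0416, 7.15e-06 and 5.9e-05). The call of Cxcl9 at 2 h was lost without 5 of the 6 replicate libraries, with no filter (limma adjusted p = 0.109), with the 2 h libraries alone (adjusted p = 0.11) and with a replicate block (adjusted p = 0.0702). Between 6 h and 2 h the priming difference changed by -4.86 ± 0.34 for Cxcl9, -1.69 ± 0.29 for Cxcl10 and -3.66 ± 0.30 for Cxcl11 (limma adjusted p = 3.35e-06, 9.1e-04 and 8.23e-06). The interactions rest on 1 PBS/PBS library at each time. Groups held too few libraries for a check of single outlying libraries.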

How the results depend on the processing

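Of 426 values of the 3 genes under other settings, 407 kept their direction and their side of the threshold, 14 lost their call and 5 changed sign, and 127 of 142 counts of called entries stayed within 1.5 times. The interaction of Cxcl9 at 2 h lost its call with no filter (-1.65, limma adjusted p = 0.109), with the 2 h libraries alone (-1.65, adjusted p = 0.11) and with a replicate block (-1.67, adjusted p = 0.0702). Leaving out 1 replicate gave -1.95 to -1.35. The block changed no other call. For 15 pairs of groups, libraries with the same number deviated from their group means with r between -0.19 and 0.078 over tested entries. Low values of r cannot settle whether libraries with the same number share an animal, culture or day. Cxcl11 between 6 h and 2 h in primed LPS-treated cells lost its call with no filter (-0.69, limma adjusted p = 0.0706) and ranged from -0.70 to -0.67 with 1 replicate left out. Cxcl10 under LPS in primed cells at 2 h ranged from 0.79 to 1.16. Sign changes came only in differences without a call: priming of Cxcl10 at 2 h was -0.015 with median-of-ratios scaling and ranged from -0.16 to 0.20 with 1 replicate left out, priming at 6 h ranged from -0.058 to 0.67 for Cxcl9 and from -0.16 to 0.35 for Cxcl11, and LPS in primed cells at 2 h ranged from -0.024 to 0.31 for Cxcl9.

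Called entries for LPS in unprimed cells at 2 h numbered 1899, against 1176 with the 2 h libraries alone and 2873 with both PBS/PBS libraries as 1 control, and 1793 to 3703 with 1 replicate left out. Called interactions at 2 h numbered 514, against 195 with the 2 h libraries alone and 276 to 1637 with 1 replicate left out. LPS in primed cells at 2 h gave 1543 to 1812 and Poly I:C alone between the times 2013 to 3015 with 1 replicate left out. Fits with fewer libraries have fewer residual degrees of freedom, and the cause of the other changes was not tested. Leaving out a PBS/PBS library could not be fitted, since its group would be empty. Absolute depth is unknown, and the near-zero controls of Cxcl9 and Cxcl11 limit what their fold changes can show.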
